A study of Mus musculus with 12 samples.

Results

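Histone modifications were examined at 10 genes of mesenchymal and smooth muscle cells, Col1a1, Col3a1, Pdgfra, Acta2, Des, Myh11, Vim, Foxf1, Foxl1 and Gli1, out of 21938 protein-coding genes of the mouse annotation. The genes were chosen by name, and every peak that touched the gene body or the 5 kb on either side of it, called the window here, was assigned to the gene. The series holds 12 ChIP-Rx libraries, a form of ChIP-seq with added foreign chromatin, from crypts and villi of the mouse small intestine, and asks how modifications of histone H3, whose tail is proteolytically shortened in villi, are distributed in both compartments. The peak lists of H3K4me3, H3K4me1, H3K27me3 and H3K9me3 were used, with 1 library per modification and compartment. No treatment is named for either group, the villi being scraped from the opened intestine with glass coverslips and the crypts released from the remaining tissue with EDTA, and both chromatin samples received Drosophila S2 chromatin at 5%. Strain, age, number of animals and any pooling are not stated in the labels, and no promoter, transgene or cell sort was used to isolate 1 cell type. With 1 library a group there is no replicate check, so all values below are descriptions of these libraries and no p-value was computed.

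Mesenchymal cells lie under the intestinal epithelium, around the crypts and in the core of the villi, and make the collagen matrix. The forkhead factors Foxf1 and Foxl1 and the zinc finger factor Gli1 act in these cells in the response to Hedgehog ligands from the epithelium. Smooth muscle cells of the gut wall and of the villus core contain the contractile and cytoskeletal proteins encoded by Acta2, Des and Myh11. H3K4me3 is known as a mark of active promoters, H3K4me1 of enhancers and promoter flanks, H3K27me3 of Polycomb repression and H3K9me3 of heterochromatin. A promoter that carries H3K4me3 and H3K27me3 on the same chromatin is called bivalent. In tissue made of several cell types, marks on the same chromatin and marks on different cells cannot be told apart, nor can fewer cells with a mark and less of the mark in each cell.

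H3K27me3 lay at the promoters of most of the 10 genes, and none of the 10 carried H3K4me3 alone there. In the windows, 8 of the 10 genes had an H3K27me3 peak in crypts, where 17.9% of all protein-coding genes had one, and the same 8 had one in villi, where the share of all genes was 23%. H3K4me3 peaks were in the windows of 5 genes, Col1a1, Pdgfra, Vim, Foxf1 and Gli1, in either compartment, against 63.3% of all genes in crypts and 63.6% in villi. H3K4me1 peaks were in the windows of 9 genes in either compartment, all except Col3a1, against 69.2% and 68.9%. No H3K9me3 peak lay in any of the 10 windows, against 3.91% of genes in crypts and 3.12% in villi, and the closest one was 108836 bp from Gli1, in villi. Promoters with H3K9me3 were rare everywhere, at 0.38% of genes in crypts and 0.311% in villi. Col3a1 had no peak of any of the 4 modifications.

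**Figure D1:**
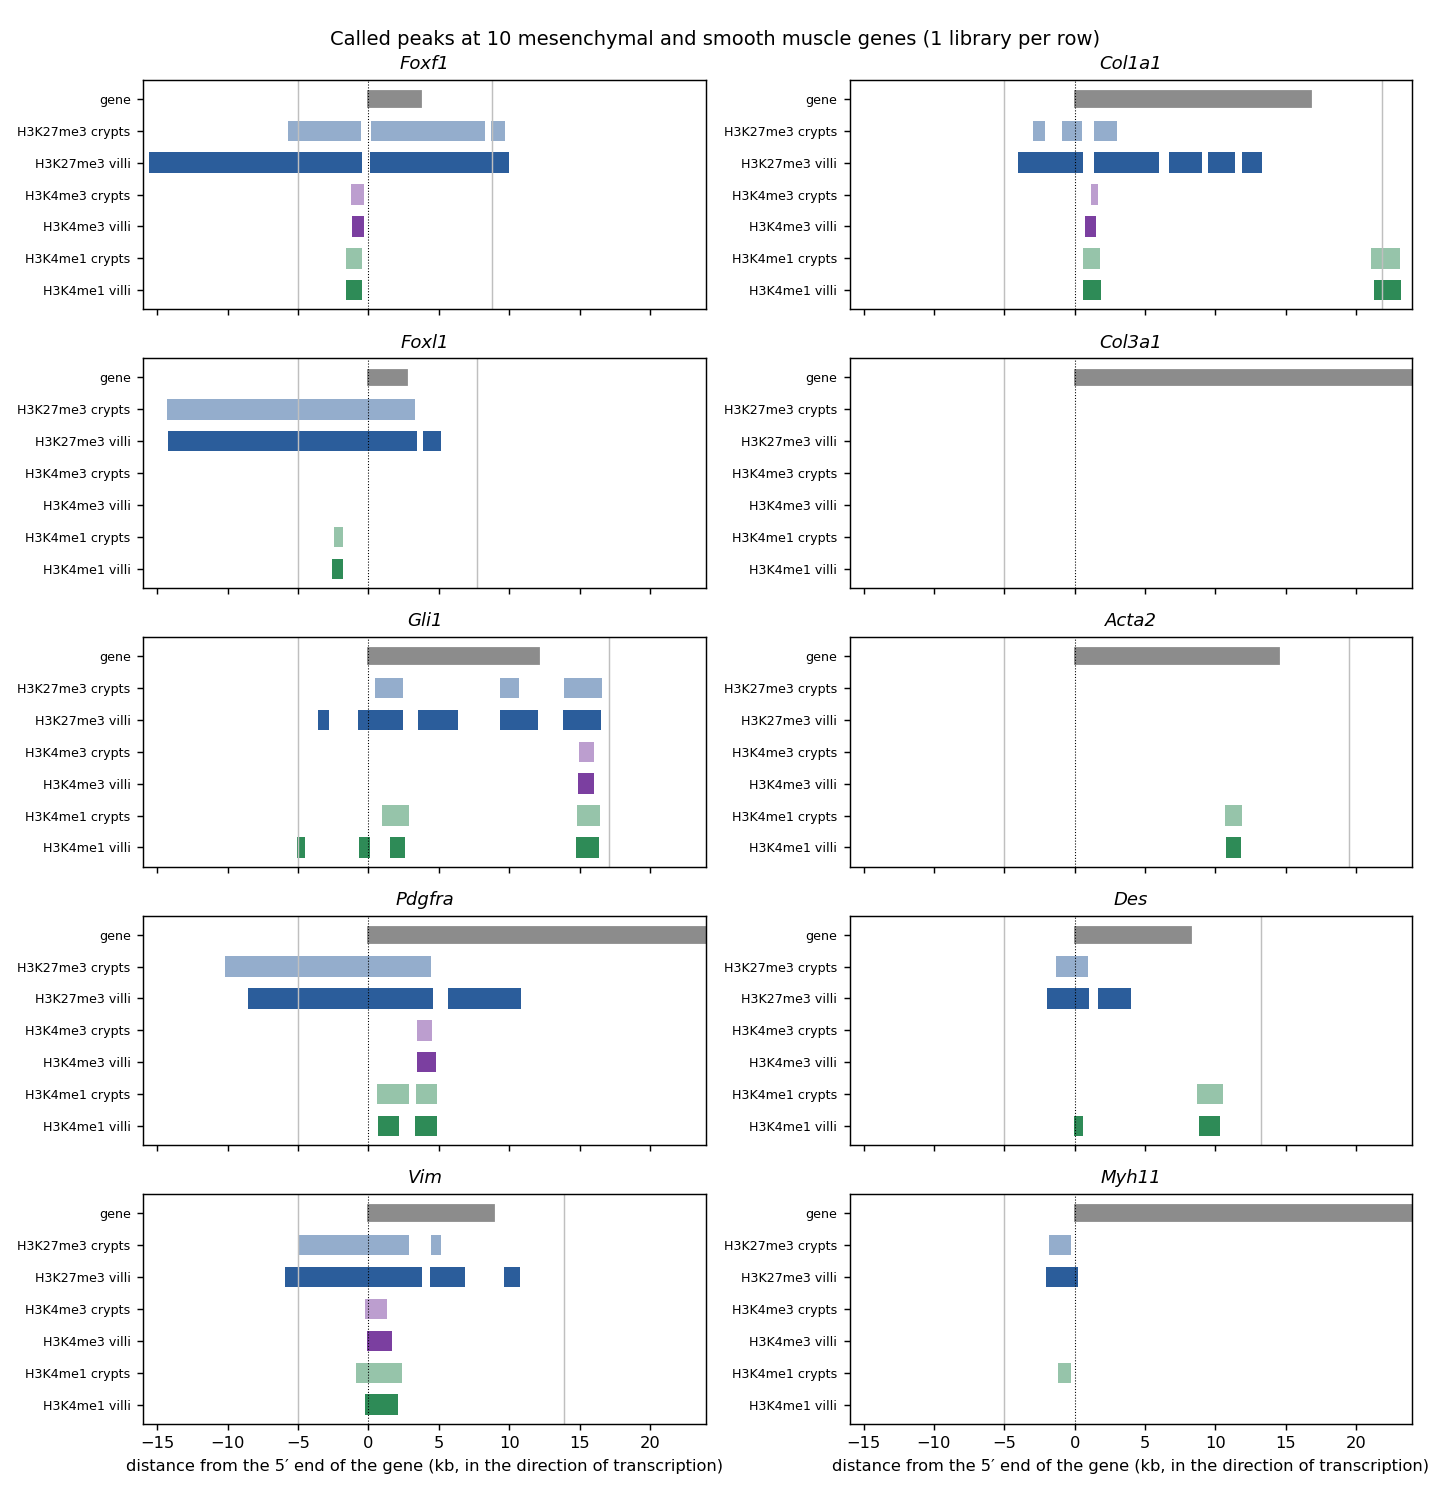
Map of the peaks at the 10 genes, with distance from the 5′ end of the gene in kb on the horizontal axis. Each gene is drawn in the direction of transcription, and all panels have the same scale. The panels end before the 3′ ends of Myh11, Pdgfra and Col3a1. The Myh11 intron H3K4me1 peak, from 37358 to 38592 bp in crypts and 37280 to 38692 bp in villi, is therefore not shown. Rows are H3K27me3, H3K4me3 and H3K4me1 in crypts and in villi, and the bar is the gene body. H3K27me3 fills most of the Foxf1 and Foxl1 windows in both compartments, H3K4me3 appears at 5 genes, and the Col3a1 panel is empty.

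At the promoters, taken as 1 kb on either side of any protein-coding start site, H3K27me3 was found at 8 genes in crypts and 8 in villi, against 13.1% and 16.1% of all genes. H3K4me3 was found at 3 genes in crypts and 4 in villi, against 57.7% and 57.9%. H3K4me1 was found at 6 promoters in either compartment, against 57.9% and 56.1%. Its genes were Pdgfra, Vim, Foxf1, Gli1 and Col1a1 in both, with Myh11 in crypts and Des in villi. H3K4me3 and H3K27me3 together were found in crypts at Vim, Pdgfra and Foxf1, 3 genes, and in villi at these and Col1a1, 4 genes, against 6.59% and 7.87% of all genes. H3K27me3 without H3K4me3 was found at Des, Foxl1, Gli1 and Myh11 in both compartments, and at Col1a1 in crypts, thus at 5 genes in crypts and 4 in villi, against 6.49% and 8.21% of all genes. Col3a1 and Acta2 had neither, the state of 35.8% and 33.9% of all genes. H3K4me3 without H3K27me3, the state of 51.1% of all genes in crypts and 50.1% in villi, was at none of the 10.

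The share of the window under H3K27me3 peaks ranged widely between the genes. Its median over the 10 genes was 15.6% in crypts and 42.0% in villi, and over all genes it was 0% in both. For H3K4me3 the medians of the 10 genes were 0.820% and 1.22%, below the 2.68% and 2.62% of all genes, and for H3K4me1 they were 6.92% and 6.40%, beside 5.15% and 4.95%.

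Foxf1 and Foxl1 are neighbouring genes on chromosome 8 that encode forkhead transcription factors of the gut mesenchyme, with start sites 43554 bp apart, and they had the largest H3K27me3 coverage of the 10. At Foxf1 (chr8:121084386-121088144, plus strand) 92.0% of the window was under H3K27me3 peaks in crypts and 96.1% in villi. Upstream, a peak ran from -5691 to -511 bp of the start site in crypts, 5181 bp wide, and from -15583 to -427 bp in villi, 15157 bp wide. The villi peak overlapped 3 peaks of the crypts list, 2 of them farther upstream than the window, so its width joins stretches that were separate peaks in crypts. Downstream, the peaks began at 197 bp in crypts and at 110 bp in villi, so that the start site itself lay in a gap between the domains in both lists.

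The H3K4me3 peak of Foxf1 reached into this gap from the upstream side. It ran from -1209 to -347 bp (crypts) and -1177 to -353 bp (villi), between the start of Foxf1 and that of Fendrr, a divergently transcribed noncoding RNA gene that begins 1276 bp upstream. H3K27me3 peaks covered 81.0% of its bases in crypts and 91.0% in villi. An H3K4me1 peak of 1150 bp (crypts) and 1149 bp (villi) lay over the start of Fendrr. The widths of the H3K4me3 and H3K4me1 peaks were nearly equal in the 2 compartments.

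Foxl1 (chr8:121127940-121130644, plus strand) lay inside 1 long H3K27me3 peak, 17646 (crypts) and 17704 bp (villi) wide, which also covered the start of Foxc2, another forkhead gene, 11769 bp upstream. Peaks were ranked by score within their list, with 100 for the highest, and this peak had rank 91.6 in crypts and 99.5 in the longer villi list. No H3K4me3 peak lay in its window, the nearest being 11292 bp from the gene in crypts and 11055 bp in villi. Its only H3K4me1 peak was short, 679 bp (crypts) and 787 bp (villi), and lay about as far upstream in both, at -2469 to -1791 bp and -2568 to -1782 bp. From the start of Foxf1 to the end of Foxl1, an interval of 46259 bp, H3K27me3 peaks covered 56.4% in crypts and 58.0% in villi. The domains of the 2 genes were not joined across the interval in either list.

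Gli1 (chr10:127329882-127341974, minus strand) encodes a transcription factor that is itself a target of Hedgehog signalling. Its H3K27me3 was in 3 separate peaks in crypts and 5 in villi, and covered 27.2% and 55.0% of the window. The promoter peak ran from 439 to 2432 bp in crypts, over the internal start site at 2015 bp, and from -749 to 2479 bp in villi, where it also included the 5′ start. The H3K4me3 peak of the window was not at Gli1's promoter. It lay 14983 to 16013 bp from the 5′ end in crypts and 14858 to 16021 bp in villi, beyond the end of the gene and inside the neighbouring gene Arhgap9, and all of it was under H3K27me3 in both. H3K4me1 was at the internal start in both compartments, and in villi a peak of 846 bp also covered the 5′ start.

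Pdgfra (chr5:75152292-75198215, plus strand) encodes the alpha receptor for platelet-derived growth factor, a marker of fibroblasts and subepithelial mesenchyme. A single H3K27me3 peak covered its 5′ end, from -10184 to 4415 bp (crypts) and -8568 to 4588 bp (villi), and villi had a second one from 5666 to 10867 bp. The coverage of the window was 16.8% in crypts and 26.4% in villi. H3K4me3 was not at the 5′-most start but inside the gene, over the start at 3607 bp and, in villi, also over the next internal start, in a peak of 1014 bp (crypts) and 1369 bp (villi). Of its bases, 93.4% and 84.1% were under H3K27me3. When only the 5′-most start of each gene was used, Pdgfra no longer had both marks at its promoter. The 250 bases upstream of the RefSeq start are shown because this start lay inside the H3K27me3 domain without an H3K4me3 peak (chr5:75152001-75152250, GRCm38.p6, plus strand, 5′ to 3′, CG dinucleotides in capitals).

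Pdgfra: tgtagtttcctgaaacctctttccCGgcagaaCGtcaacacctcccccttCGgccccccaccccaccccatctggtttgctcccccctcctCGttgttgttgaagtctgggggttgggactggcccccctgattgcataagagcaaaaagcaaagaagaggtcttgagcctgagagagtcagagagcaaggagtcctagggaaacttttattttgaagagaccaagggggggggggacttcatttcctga

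Vim (chr2:13573927-13582826, plus strand) encodes vimentin, the intermediate filament protein of mesenchymal cells. It was the gene at which H3K4me3 lay most completely within H3K27me3 across the start sites. The H3K4me3 peak ran from -249 to 1284 bp (crypts) and -95 to 1638 bp (villi), with 100% of its bases under H3K27me3 in both. H3K27me3 extended from -4904 to 2887 bp (crypts) and -5907 to 3786 bp (villi), and with further peaks inside and, in villi, beyond the gene it covered 45.1% and 65.8% of the window. An H3K4me1 peak of 3223 bp (crypts) and 2339 bp (villi) spanned the same start sites.

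The matrix genes Col1a1 and Col3a1, which encode fibrillar collagens of connective tissue, differed from each other in every mark except H3K9me3. At Col1a1 (chr11:94936224-94953042, plus strand) H3K27me3 covered 14.4% of the window in crypts, in 3 peaks, and 55.4% in villi, in 5 peaks. The peak at the start site ran from -921 to 488 bp (crypts) and -4000 to 577 bp (villi). An H3K4me3 peak lay in the gene, from 1193 to 1632 bp (crypts) and 699 to 1489 bp (villi), and it counted as promoter H3K4me3 only in villi because its edge came within 1 kb of the start there. With 500 bp Col1a1 had both marks in neither compartment, and with 2.5 kb in both. Of the H3K4me3 bases at Col1a1, 51.6% were under H3K27me3 in crypts and 16.9% in villi. In villi this overlap was with the H3K27me3 peak from 1356 to 5966 bp, and not with the one at the start site. When the promoter peaks of both marks had to overlap each other, Col1a1 no longer had both marks in villi.

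Col3a1 (chr1:45311538-45349706, plus strand) stood far from any peak. The nearest H3K4me3 peak was 445082 bp away (crypts) and 445094 bp (villi), and the nearest H3K27me3 peak 1112470 bp and 758645 bp. Its promoter sequence was poor in CG dinucleotides. In the 300 bases from 250 upstream to 50 downstream of the RefSeq start, Col3a1 had 0 CG, as did 5.42% of 32841 promoters of that length. Pdgfra had 5, Acta2 6, and Des and Vim 11 each. The median over all these promoters was 7. By the marks in crypts it was 23 at promoters with both H3K4me3 and H3K27me3, 21 with H3K4me3 alone, 14 with H3K27me3 alone and 3 with neither. The Vim start, with both marks, was below the median of its class, as was the Pdgfra start, with H3K27me3 alone. The Des start, also with H3K27me3 alone, was below the median of that class in crypts and equal to the 11 of the class in villi. Acta2, with neither mark, was above the median of its class. The upstream bases of Col3a1, the gene with no mark, and of Des, a gene with H3K27me3 alone, are given to show the contrast in CG content (chr1:45311288-45311537 and chr1:75360042-75360291, GRCm38.p6, both plus strand, 5′ to 3′, CG in capitals). They hold 0 and 10 CG.

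Col3a1: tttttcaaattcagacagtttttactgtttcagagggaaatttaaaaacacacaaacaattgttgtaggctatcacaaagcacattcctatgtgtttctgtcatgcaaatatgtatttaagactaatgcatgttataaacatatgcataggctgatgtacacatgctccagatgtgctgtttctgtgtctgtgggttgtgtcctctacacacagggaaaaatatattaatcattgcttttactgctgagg
Des: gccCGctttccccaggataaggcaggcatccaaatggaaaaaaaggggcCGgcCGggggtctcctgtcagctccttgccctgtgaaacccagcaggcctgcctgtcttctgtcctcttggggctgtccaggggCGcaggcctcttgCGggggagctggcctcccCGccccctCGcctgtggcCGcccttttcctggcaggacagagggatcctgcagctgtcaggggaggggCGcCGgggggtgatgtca

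The contractile and muscle filament genes carried less H3K27me3 than the transcription factors. Des (chr1:75360329-75368579, plus strand), encoding desmin, had an H3K27me3 peak over its start from -1359 to 925 bp (crypts) and -1997 to 989 bp (villi), and a second peak in the gene body only in villi. Its coverage was 12.5% in crypts and 29.0% in villi. Myh11 (chr16:14194535-14291372, minus strand), encoding smooth muscle myosin heavy chain, had 1 peak upstream of its start, reaching past it in villi, 1519 (crypts) and 2287 bp (villi) wide, which was 1.42% and 2.14% of a long window. Acta2 (chr19:34241090-34255590, minus strand), encoding smooth muscle actin, had none, and its nearest H3K27me3 peak was 216840 bp away (crypts) and 209089 bp (villi). None of these 3 genes had an H3K4me3 peak in its window.

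H3K4me1 at the contractile genes was mostly away from the start site. At Acta2 the only peak lay inside the gene, 1266 (crypts) and 1077 bp (villi) wide. At Myh11 a peak lay in an intron, from 37358 to 38592 bp (crypts) and 37280 to 38692 bp (villi), and a second, of 906 bp upstream of the start, was in crypts only. At Des a peak lay downstream of the gene in both, and a peak of 622 bp over the start was in villi only, inside H3K27me3.

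All 8 genes with H3K27me3 had more of their window covered in villi than in crypts, as had 86.4% of all genes with an H3K27me3 peak in either compartment. The ratio of covered bases, villi over crypts, was 3.84 at Col1a1, 2.31 at Des and 2.03 at Gli1. It was 1.57 at Pdgfra, 1.51 at Myh11 and 1.46 at Vim. At Foxl1 it was 1.18 and at Foxf1, whose window was nearly full in crypts, 1.04. Of the bases covered in crypts, 100% were also covered in villi at 7 of the genes and 99.0% at Gli1, beside 91.8% of H3K27me3 bases over the whole genome. The villi list was the longer, with 13797 H3K27me3 peaks against 7611 in crypts. With the villi list reduced to its 7611 highest-scoring peaks, Col1a1 had 34.3%, Des 16.4% and Gli1 51.7% of the window covered in villi, still above crypts, and Myh11 had no peak.

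**Figure D2:**
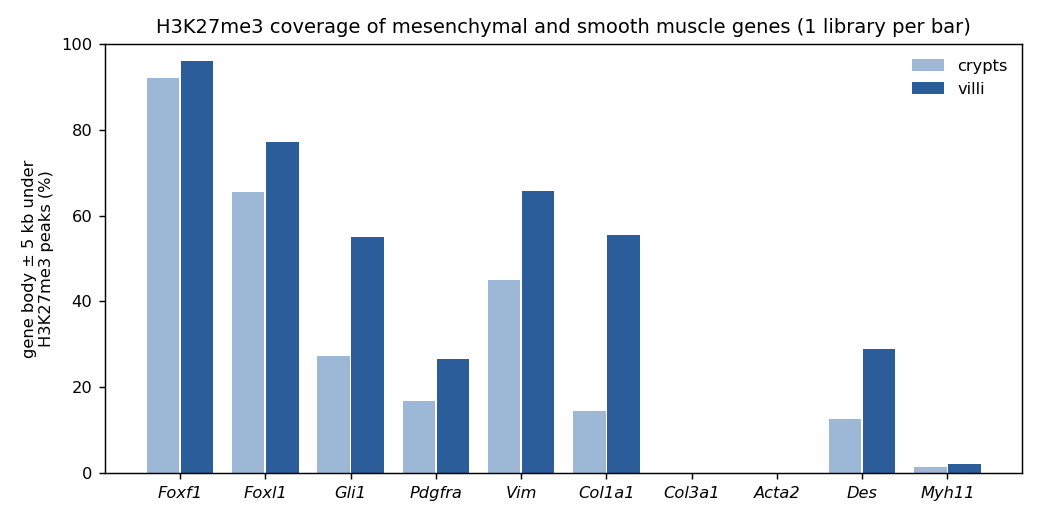
Share of the window under H3K27me3 peaks, in percent, for each of the 10 genes in crypts and in villi, 1 library each and therefore without error bars. The villi value is above the crypts value at 8 genes, with the widest difference at Col1a1 (14.4% and 55.4%), and Col3a1 and Acta2 are at 0.

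Peaks that overlapped 1 peak only of the other compartment could be compared one to one. For H3K27me3 there were 9 such pairs at the 10 genes, and all 9 were wider in villi, as were 79.2% of all such pairs in the genome. Their median log2 ratio of width, villi over crypts, was 0.59, within the quartiles of all pairs, 0.03 and 0.77. The rank in the list was higher in villi for 7 of the 9, against 76.5% of all pairs, but the villi list is the longer and its additional peaks raise the rank of the shared ones. When the paired peaks alone were ranked, 6 of the 9 were higher in villi, against 49.9% of all pairs.

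The H3K4me3 peaks in the windows ranked low in both lists. In crypts their ranks were 2.60 at Col1a1, 8.39 at Vim, 16.6 at Pdgfra, 27.4 at Foxf1 and 28.0 at Gli1. In villi they were 3.67 at Col1a1, 3.67 at Vim, 25.5 at Pdgfra, 35.2 at Foxf1 and 29.8 at Gli1. Those at a promoter, all except Gli1 and, in crypts, Col1a1, were below the median rank of promoter H3K4me3 over all genes, each gene taken at its highest peak, which was 66.5 in crypts and 67.0 in villi. H3K4me3 peaks overlapping H3K27me3 anywhere in the genome had a median rank of 23.3 in crypts and 26.2 in villi, and those without H3K27me3 54.5 and 55.0. One-to-one pairs were formed by all 5, of which 4 ranked higher in villi, all except Vim, and 4 were wider there, all except Foxf1, against 54.7% and 42.8% of H3K4me3 pairs in the genome. More of the window was under H3K4me3 in villi at the same 4 of 5 genes, against 42.5% of genes. The 5 peaks at these genes all overlap H3K27me3 in both compartments and are thus part of the class overlapping it. Their median rank was 16.6 in crypts and 25.5 in villi.

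**Figure D3:**
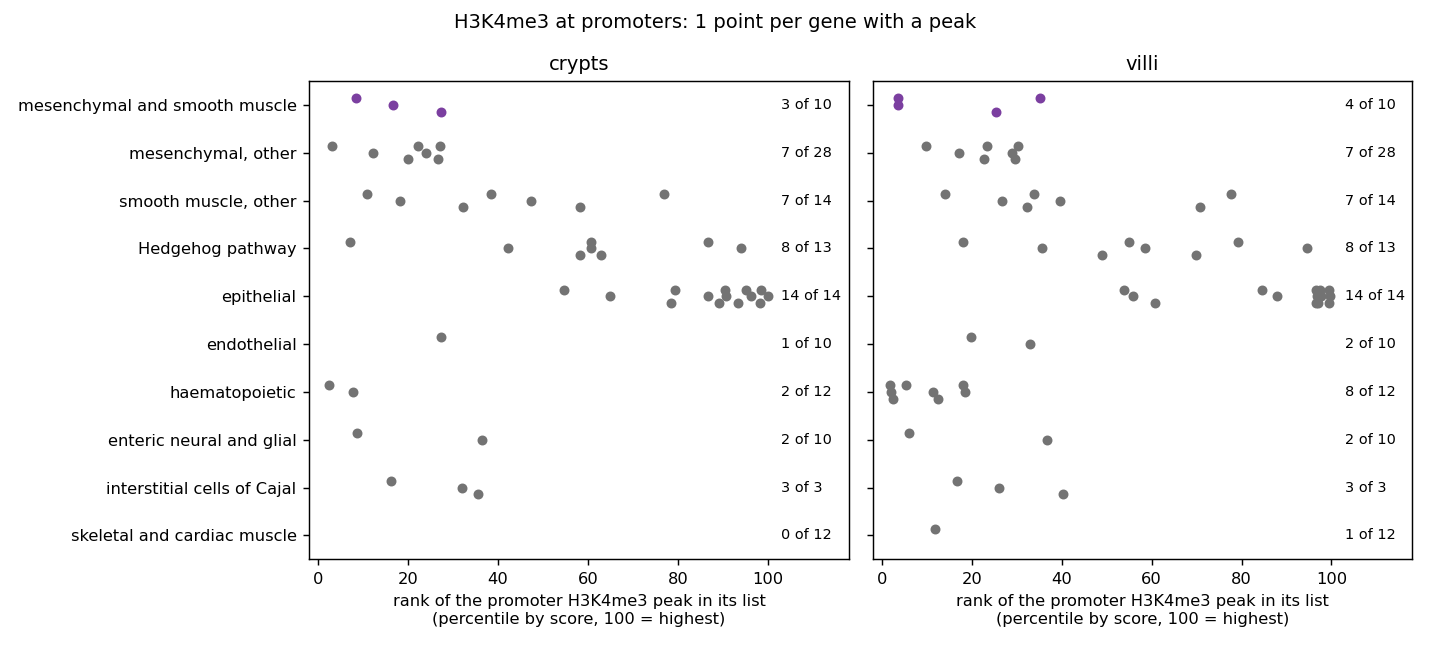
Rank of H3K4me3 peaks by score within their own list, in percent with 100 for the highest, at promoters of the gene lists in crypts and in villi. The mesenchymal and smooth muscle genes lie at or below 35.2 and the epithelial genes at or above 53.8. The other smooth muscle genes reach 76.8 in crypts and 77.6 in villi, and the Hedgehog pathway genes 93.9 and 94.5. Genes of interstitial cells of Cajal reach 35.5 and 40.3. The other mesenchymal, endothelial, haematopoietic and enteric neural genes stay at or below 36.7, as does Acta1, the only skeletal and cardiac muscle gene with a peak.

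H3K4me1 peaks ranked higher in villi at these genes. Of 12 one-to-one pairs in their windows, 12 had the higher rank in villi, where 49.3% of all pairs did. The median rise was 26.2 points of rank, and the median over all pairs was -0.34. The peak upstream of Foxl1 went from rank 4.66 in crypts to 77.5 in villi, and that at Fendrr and Foxf1 from 27.2 to 83.1. At Col1a1 the peak within the gene went from 48.6 to 72.0 and the one downstream from 43.5 to 79.9. The intragenic Acta2 peak went from 0.109 to 31.6, the Myh11 intron peak from 14.9 to 41.9 and the peak downstream of Des from 62.8 to 88.1. Smaller rises were seen at Vim, from 87.0 to 93.8, and at Pdgfra, from 39.8 to 49.0 and from 85.0 to 96.4. At Gli1 the peak in Arhgap9 went from 54.3 to 85.5, and the one at the internal start barely moved, from 71.6 to 72.0.

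The peaks at these genes did not widen with their rank, since 4 of the 12 were wider in villi, against 49.2% of all pairs. At 3 of the 9 genes, Des, Foxl1 and Gli1, more of the window was under H3K4me1 in villi, against 52% of genes with a peak in either compartment. Among all pairs with a crypts rank up to 50, 67.3% ranked higher in villi, and 7 of 7 pairs at these genes did. Above 50 the shares were 35.4% and 5 of 5. Several of the 12 pairs share a gene, and Foxf1 and Foxl1 share a locus, so the pairs are not independent of each other.

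**Figure D4:**
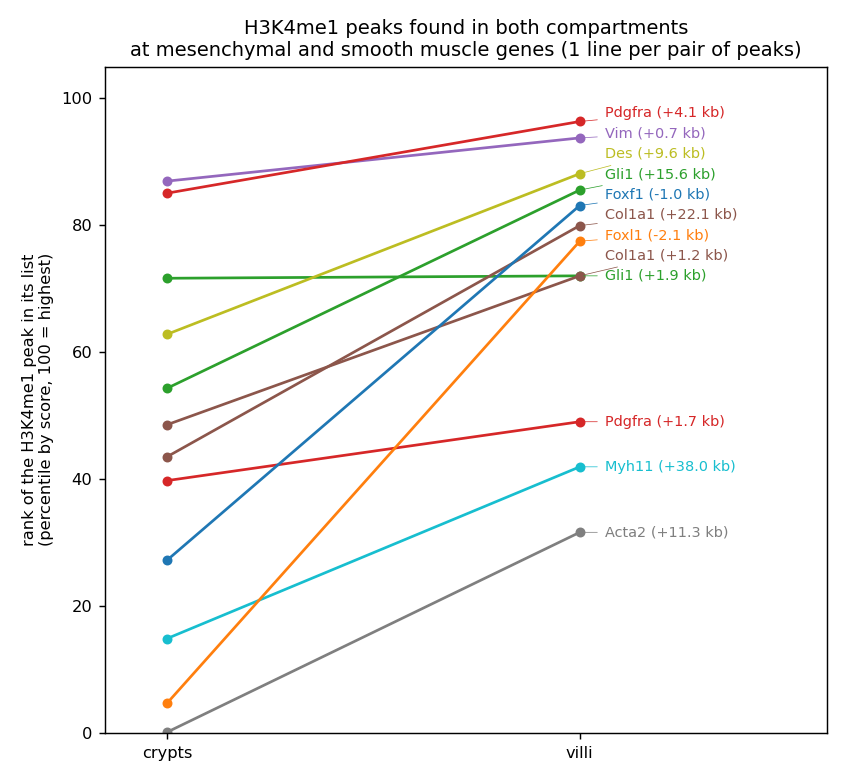
Rank of the 12 H3K4me1 peak pairs at the mesenchymal and smooth muscle genes in crypts and in villi, 1 line per pair, in percent of the list with 100 for the highest score. All 12 lines rise, the steepest at Foxl1 (4.66 to 77.5).

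Other genes of the same cell types were examined from lists of 28 mesenchymal and 14 smooth muscle genes. Of the 28 other mesenchymal genes, 7 had both marks at the promoter in crypts and 6 in villi, and 10 and 13 had H3K27me3 alone. H3K4me3 without H3K27me3 was at 0 of them in crypts and at 1 in villi, Snai1, a transcription factor of epithelial-mesenchymal transition. The matrix genes Col1a2, Col5a2, Col6a1, Col6a2, Col6a3, Dcn, Lum and Postn had neither mark in either compartment, the state also of Col3a1. Over the whole list, 39.3% in crypts and 28.6% in villi had neither, near the 35.8% and 33.9% of all genes. The other matrix genes of the list were marked: Fn1 had both marks in crypts and villi, Col5a1 had both in crypts and H3K27me3 alone in villi, Fbn1 and Loxl1 had H3K27me3 alone in both, and Sparc had it in villi only.

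Among the 14 other smooth muscle genes, H3K4me3 alone at the promoter was found at 42.9% in crypts and 28.6% in villi, against 51.1% and 50.1% of all genes, and neither mark at 35.7% in both. In crypts 6 of them, Csrp1, Tpm2, Tpm1, Smtn, Srf and Flna, had H3K4me3 alone, 1, Synpo2, had both marks and 2, Lmod1 and Cnn1, had H3K27me3 alone. In villi Csrp1, Smtn, Srf and Flna had H3K4me3 alone, Synpo2, Tpm1 and Tpm2 had both marks, and Myl9 and Cnn1 had H3K27me3 alone. Tpm1, Tpm2, Srf and Flna are also transcribed in many cells that are not muscle. Actg2, Tagln, Myocd and Mylk had neither mark at the promoter in either compartment, as Acta2 did, while Myl9 in crypts and Lmod1 in villi also had neither. The H3K4me1 rank was higher in villi for 15 of 21 pairs (71.4%) at the other mesenchymal genes and for 22 of 38 (57.9%) at the other smooth muscle genes. It was also higher for 4 of 4 pairs at enteric neural and glial genes and 6 of 7 at skeletal and cardiac muscle genes. The count was 18 of 28 at other Hedgehog pathway genes and 6 of 9 at genes of interstitial cells of Cajal, and 16 of 35 at epithelial, 10 of 18 at endothelial and 5 of 12 at haematopoietic genes, so a rise was not limited to the 10 genes.

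Of 13 other Hedgehog pathway genes, 8 (61.5%) had promoter H3K4me3 in either compartment, near the 57.7% and 57.9% of all genes. The ligand Ihh, the release factor Disp1, the co-receptors Cdon and Boc and the inhibitor Sufu had H3K4me3 alone. The receptor Ptch1, the signal transducer Smo and the co-receptor Gas1 had both marks in crypts and in villi. Like Gli1, the transcription factor Gli2 and the ligand Shh had H3K27me3 alone in both, and Hhip and Gli3 had it in villi only.

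**Figure D5:**
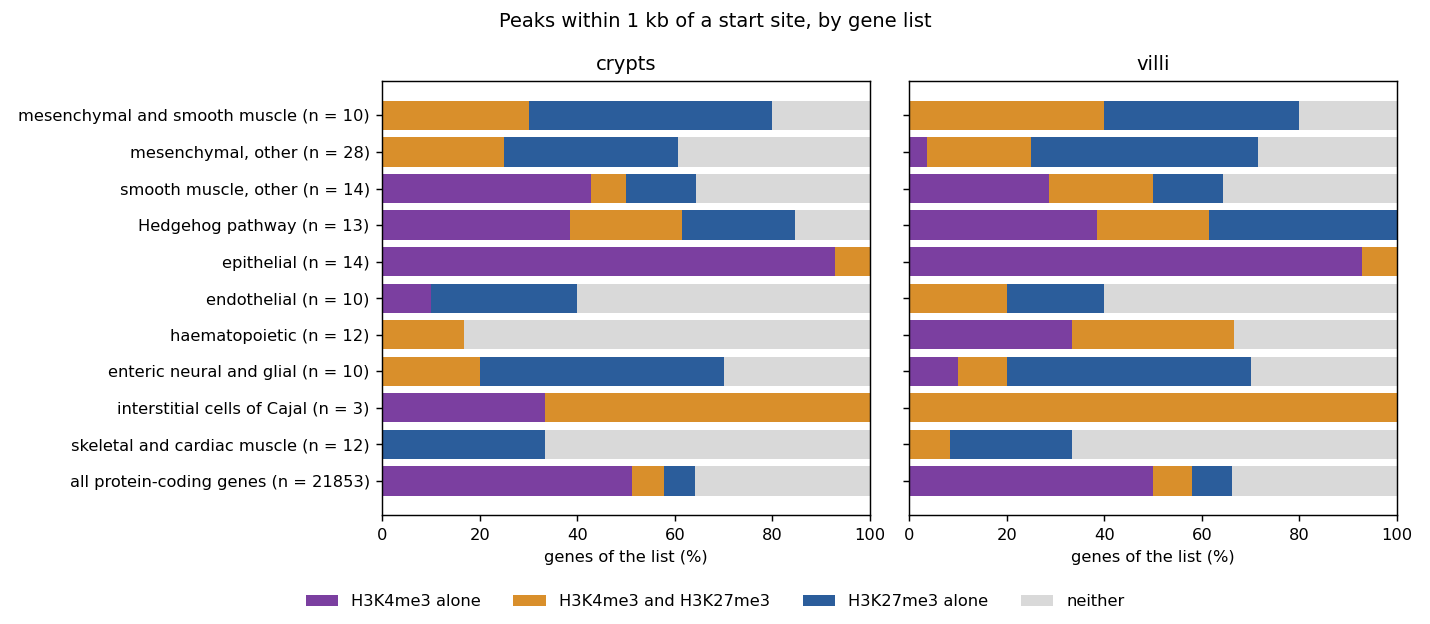
Share of genes of each list, in percent, with H3K4me3 alone, H3K4me3 and H3K27me3, H3K27me3 alone or neither within 1 kb of a start site, in crypts and in villi. The mesenchymal and smooth muscle genes have no H3K4me3-alone segment (0 of 10), while 13 of 14 epithelial genes are in that class.

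The same marks were read at marker genes of other cell types, as peaks and not as a measure of cell numbers. All 14 epithelial genes had promoter H3K4me3 in both compartments, with median ranks of 90.6 in crypts and 96.7 in villi and lowest ranks of 54.6 and 53.8, and 13 of them had no H3K27me3, the exception being Tjp1. Of 12 haematopoietic genes, 2 had promoter H3K4me3 in crypts and 8 in villi, all at ranks up to 18.5, and the defining genes Ptprc, Cd3e, Cd3g and Cd8a were among those with it in villi only. Spi1, Cd79a, Itgam and Csf1r had none. Of 10 endothelial genes, 1 had promoter H3K4me3 in crypts, Esam, and 2 in villi, Esam and Kdr, and Pecam1 and Cdh5 had none. Promoter H3K4me3 was at 2 of 10 enteric neural and glial genes in either compartment, at all 3 genes of interstitial cells of Cajal, and at 0 of 12 skeletal and cardiac muscle genes in crypts and 1, Acta1, in villi. At the 10 mesenchymal and smooth muscle genes the counts were 3 and 4, which differ by the Col1a1 peak whose edge lies near the 1 kb limit. The part that different numbers of non-epithelial cells in the scraped villi and the released crypts have in the values of the 10 genes was not tested.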

How the data were processed

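ChIP-Rx libraries of crypts and villi were aligned by the authors to mm10 (GRCm38) with Bowtie 1.1.2, duplicates were removed with samblaster, and peaks were called with MACS2 2.1.1 at a p-value of 1e-10; deepTools 3.1 is also named in the processing notes. The deposited value of each peak is read here as the authors' −log10 p-value, since it is 10 or more in every list. It was used only to rank peaks within a list, since it depends on depth, which the lists do not give, and is not scaled to the spike-in. The lists hold 16489 and 16977 H3K4me3, 54642 and 55341 H3K4me1, 7611 and 13797 H3K27me3, and 2126 and 2089 H3K9me3 peaks in crypts and villi. Files of 4 further libraries, the inputs and H3K9me2, were not used here.

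Peaks were assigned to GENCODE M21 genes with Python 3.11.15, NumPy 2.4.6 and pandas 2.3.3 at an overlap of 1 bp, and drawn with Matplotlib 3.10.9. Promoters were defined for the 21853 genes with a protein-coding transcript. The scripts were tested on simulated data. Distances are in the direction of transcription from the 5′ end of the gene. RefSeq promoter sequences were matched for 5 of the 10 genes, Col3a1, Pdgfra, Acta2, Des and Vim, but not for Col1a1, Myh11, Foxf1, Foxl1 and Gli1, so a comparison of CG content over the whole set is void. All 10 genes are named, and other genes only to account for small counts or after their values were seen. The genes and lists were chosen with earlier results of these data known. Alternatives covered the window, the promoter, the overlap and the length of the lists. Not every gene of the other lists has its own state reported here.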

Additional observations from a re-analysis of the deposited data

How the results depend on the processing

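Leaving out settings that could not change a value (no H3K9me3 peaks, crypts lists already the shorter), 49 of 62 recomputed values stayed within 1.5 times the reported one and 13 moved further. With the top 50% of each list by score, 0 of the 10 genes had H3K4me3 in the window in crypts and 0 in villi, 0 had both marks at the promoter in crypts and 0 in villi, 4 had H3K4me1 in crypts, and the median coverage was 0% for H3K4me3 in both compartments and 0% for H3K4me1 in crypts. All H3K4me3 peaks at these genes rank at or below 35.2 and are removed by this setting. With the gene body alone, 3 genes had H3K4me3 in crypts and 3 in villi, and the median coverage was 0% for H3K4me3 in both and 4.06% for H3K4me1 in crypts. H3K27me3 was in the windows of 7 genes in both compartments with the top 50% and of 7 in villi with lists of equal length, Myh11 being the gene without a peak in each case. The H3K4me1 comparison was repeated in settings chosen after seeing the data, ranking paired peaks only or requiring 50% reciprocal overlap, and 12 of 12 pairs ranked higher in villi in each. The ranking of paired H3K27me3 peaks only was also chosen after seeing the data. Depth is unknown, so a missing peak sets no limit on the mark. No paired analysis was possible because each group has 1 library and the labels give no replicate numbers.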
